A study of Homo sapiens with 17 samples.

Results

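The *HOXB* cluster is a run of 10 genes on human chromosome 17, *HOXB1* to *HOXB9* and *HOXB13*, and its promoter interactions and H3K4me1 were described here in naive and primed pluripotent stem cells (PSCs). Its members were the named genes whose promoters lie between positions 48526637 and 48730085 of GRCh38, a stretch of 203 kb. A promoter was taken as a transcript start with the 1000 bp upstream of it. Of the 15982 baited HindIII fragments in the interaction lists, 11 carry a promoter of a member, and of 128955 listed interactions 282 have such a bait at an end. The window holds 47 HindIII fragments, of which 43 occur in a list.

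*HOX* genes encode homeodomain transcription factors that give cells their position along the head-to-tail axis of the embryo. Their order along the chromosome follows the order in which they are switched on and the body level at which they act, so that *HOXB1* marks the hindbrain end and *HOXB13* the tail end. In pluripotent cells these genes are silent and are known as classic targets of the Polycomb proteins, which mark chromatin with H3K27me3 and can bring distant targets together. H3K4me1, a modification of histone H3, is found at enhancers and beside promoters.

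Both states came from H9 NK2 (WA09), an established line of human embryonic stem cells. The study's methods describe a copy-number alteration that both states carry, on a chromosome other than that of the cluster. Naive PSCs grew without feeders on Matrigel with a MEK inhibitor (PD0325901), a GSK3 inhibitor (CHIR99021), LIF and a protein kinase C inhibitor (Go6983). Primed PSCs grew on Vitronectin in TeSR-E8. Promoter Capture Hi-C (PCHi-C) enriches ligated DNA pairs that contain a baited promoter, and the study asked which promoter contacts differ between the states. The 2 PCHi-C replicates per state were combined into 1 list of 79330 interactions in naive and 88985 in primed PSCs, each with a CHiCAGO score of at least 5, a log-scaled weighted p-value against the distance background. Hi-C, without capture, gave 1 library per state with 6631294 contacts between chromosomes in naive and 7236020 in primed PSCs. H3K4me1 came from CUT&RUN, in which an antibody directs a nuclease to the marked chromatin, with 2 naive libraries of 21785481 and 6743809 reads and 3 primed libraries of 8853586, 7892017 and 26596518 reads. Of the H3K4me1 libraries, primed 2 was the least like its group, with correlations of 0.67 and 0.71 to the other primed libraries. As 1 list or Hi-C library per state allows no test between states, PCHi-C and Hi-C values carry 95% intervals for counting error only.

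Every member is transcribed from the minus strand, so genome order from low to high coordinates runs from *HOXB1* (start 48531011) to *HOXB13* (start 48728750). In that order the baits are *HOXB1*, *HOXB2*, a fragment upstream of *HOXB2* with starts of *HOXB2*, *HOXB-AS1* and *HOXB-AS3* (the *HOXB2* upstream bait), and a fragment with a distal start of *HOXB3* and the start of *HOXB-AS2* (the *HOXB3* alternative bait). These are followed by *HOXB3*, *HOXB5*, *HOXB6*, *HOXB8*, *HOXB9* with *HOXB-AS4*, the *HOXB7* alternative bait with a distal *HOXB7* start, *LINC03057* and *MIR196A1*, and *HOXB13*. The canonical starts of *HOXB4* (48578350) and *HOXB7* (48611017) lie on fragments that were not baited, so these fragments were seen only as partners of other baits. *HOXB4* has no other bait, while *HOXB7* has its distal start on the *HOXB7* alternative bait. Beyond *HOXB1* lies *SKAP1*, the gene of a T-cell adaptor protein, and beyond *HOXB13* lies *TTLL6*, the gene of a tubulin glutamylase.

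The cluster also carries microRNA genes that share fragments with its members, and 3 of them are shown because their fragments carry results given later. *MIR10A* shares the unbaited fragment of *HOXB4*, which was called in H3K4me1. *MIR196A1* shares the *HOXB7* alternative bait, and *MIR3185* lies on the bait of *PRAC1* and *PRAC2* beside *HOXB13*. The mature sequences are from RefSeq on GRCh38.p14, minus strand, with the seed (bases 2 to 8) in capitals, and no seed is shared among them.
hsa-miR-10a-5p: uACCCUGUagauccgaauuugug
hsa-miR-10a-3p: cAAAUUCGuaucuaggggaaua
hsa-miR-196a-5p: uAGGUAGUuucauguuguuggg
hsa-miR-196a-1-3p: cAACAACAuuaaaccacccga
hsa-miR-3185: aGAAGAAGgcggucggucugcgg

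The results also turn on 3 stretches of genomic DNA. The *HOXB1* promoter at chr17:48531012-48531261 (minus strand) is shown because its bait had no naive interaction and several primed ones, and because *HOXB1* is known to regulate its own promoter through paired PBX and HOX sites. A fragment in an intron of *SKAP1* was the partner of the most *HOXB* baits counted over both states, and its middle 300 bases are shown at chr17:48260206-48260505 (plus strand). The tile between *HOXB1* and *HOXB2* with the largest H3K4me1 excess in naive PSCs, which overlaps no annotated gene, is shown by its middle 300 bases at chr17:48536601-48536900 (plus strand). Capitals mark matches to the PBX-HOX motif TGATNNAT, searched on both strands.
HOXB1 promoter: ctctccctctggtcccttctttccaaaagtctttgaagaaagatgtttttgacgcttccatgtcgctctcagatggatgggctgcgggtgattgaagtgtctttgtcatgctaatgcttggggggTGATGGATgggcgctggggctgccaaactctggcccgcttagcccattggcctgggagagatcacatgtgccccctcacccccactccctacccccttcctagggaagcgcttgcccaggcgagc
SKAP1 intron: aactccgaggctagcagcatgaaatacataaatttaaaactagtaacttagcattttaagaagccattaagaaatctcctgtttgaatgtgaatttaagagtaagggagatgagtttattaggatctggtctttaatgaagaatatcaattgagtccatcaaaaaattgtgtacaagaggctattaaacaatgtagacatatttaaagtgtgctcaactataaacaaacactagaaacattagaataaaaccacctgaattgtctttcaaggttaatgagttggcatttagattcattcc
Tile between HOXB1 and HOXB2: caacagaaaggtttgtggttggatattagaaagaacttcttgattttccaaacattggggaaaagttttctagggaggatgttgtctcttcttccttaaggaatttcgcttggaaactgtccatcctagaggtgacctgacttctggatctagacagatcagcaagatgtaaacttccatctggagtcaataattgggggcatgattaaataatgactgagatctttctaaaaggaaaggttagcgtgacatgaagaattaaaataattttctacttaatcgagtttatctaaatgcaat
The *HOXB1* promoter held 1 match, at position 126 from its 5′ end, and 6.47% of 35116 RefSeq promoters of the same length held a match. The *SKAP1* and tile sequences held 0 matches, against 12.7% of 300-base windows of chromosome 17. The *SKAP1* sequence held 1 CpG and 31.3% G and C bases, while the *HOXB1* promoter held 7 CpGs and 57.2%.

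In naive PSCs most interactions of the *HOXB* baits led to *SKAP1*, and in primed PSCs they led to the cluster itself, to the stretch just beyond *HOXB13* and, with a smaller number than in naive PSCs, to *SKAP1*. They had 135 interactions in naive and 188 in primed PSCs, a ratio of 1.39 (95% interval 1.11 to 1.75). The ratio was 1.12 for the complete lists. Interactions with both ends inside the cluster numbered 1 in naive and 58 in primed PSCs, a ratio of 58.0 with an interval of 10.01 to 2330. Those that reached beyond *HOXB1* within 1 Mb numbered 125 and 80 (ratio 0.64, 0.48 to 0.85), and those that reached beyond *HOXB13* numbered 9 and 39 (ratio 4.33, 2.06 to 10.2). These intervals treat each interaction as an independent count, although neighbouring fragments and shared baits make them dependent, and they hold no spread between replicates.

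The make-up of the interactions therefore differed in counts between the lists. Beyond *HOXB1* lay 92.6% of what the naive baits contacted (95% Wilson interval 86.9 to 95.9%), against 42.6% for the primed ones (35.7 to 49.7%). The inside of the cluster held 0.74% in naive (0.13 to 4.08%) and 30.9% in primed PSCs (24.7 to 37.8%). The median distance was 315 kb in naive and 188 kb in primed PSCs, so the primed interactions of the cluster were the shorter. Beyond *HOXB1*, 115 of the 125 naive and all 80 primed partners lay in *SKAP1*, and the other naive ones lay in *CBX1* or *COPZ2* (4) or in no annotated gene (6). Beyond *HOXB13*, 35 of the 39 primed partners and 0 of the 9 naive ones lay within 50 kb of the end of the cluster. The same 41 pairs of fragments occurred in both lists, which is 30.4% of the naive list of the cluster and 21.8% of its primed list. Of these 41 shared pairs, 37 lay beyond *HOXB1*, 3 beyond *HOXB13* and 1 inside the cluster.

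Set against the 15982 baits in the lists, 6 of the 11 *HOXB* baits had at least 2 times and at least 5 interactions more in primed PSCs, where 10.9% of those baits did. None of the 11 met the same rule for naive PSCs, where 8.25% of those baits did. The median number of interactions per *HOXB* bait was 9 in naive and 18 in primed PSCs, and the median over those baits was 3 in each. Captured baits without an interaction in either list are not among the 15982, so values over all captured baits would differ. No bait was used as a replicate of another, since *HOXB* baits lie side by side and share partners.

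**Figure D1:**
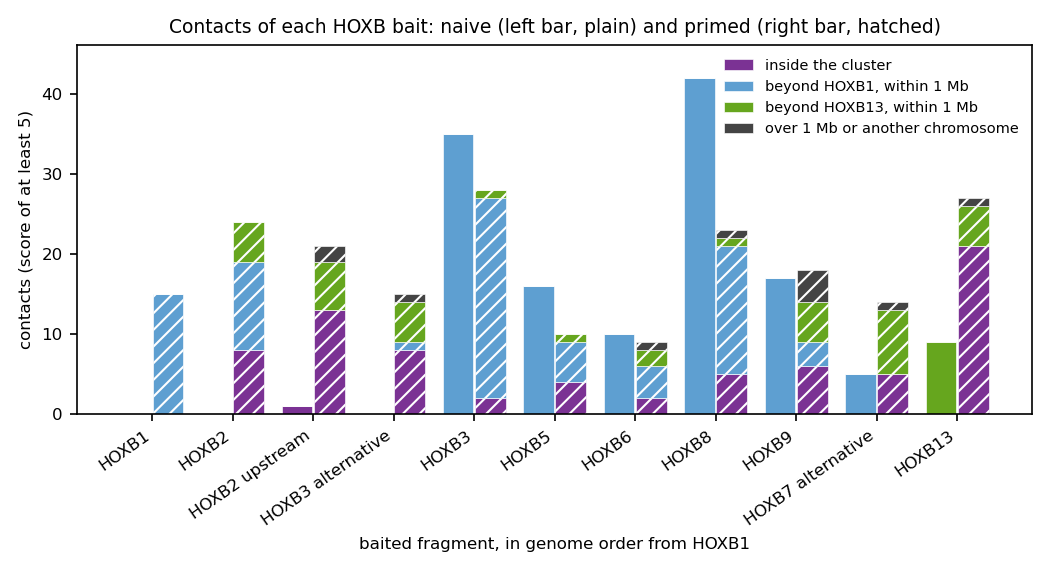
Number of interactions with a CHiCAGO score of at least 5 (y axis) for each of the 11 *HOXB* baits in genome order (x axis), in naive (plain) and primed (hatched) PSCs, with colours for where the partner lies. The naive bars of *HOXB3*, *HOXB5*, *HOXB6*, *HOXB8*, *HOXB9* and the *HOXB7* alternative bait hold only partners beyond *HOXB1*, and 10 of the 11 primed bars hold partners inside the cluster.

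The baits at the *HOXB1* end were nearly without interactions in naive PSCs. *HOXB1*, which gives identity to a segment of the hindbrain, had 0 interactions in naive and 15 in primed PSCs, all of them beyond *HOXB1* in *SKAP1*. Its partner of highest score was the *SKAP1* intron fragment at 48259948 to 48260762, 270 kb away (26 reads, score 8.77). *HOXB1* was the sole *HOXB* bait with no interaction inside the cluster in primed PSCs.

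*HOXB2*, a hindbrain gene that *HOXB1* is known to activate, had 0 interactions in naive and 24 in primed PSCs. Of the 24, 8 lay inside the cluster, 11 beyond *HOXB1* and 5 beyond *HOXB13*. Its top partner was the fragment just upstream of the *HOXB8* bait at 48615750 (71 reads, score 10.15). The *HOXB2* upstream bait had 1 interaction in naive and 21 in primed PSCs, none of the latter beyond *HOXB1* and 13 inside the cluster. Its single naive interaction was with the fragment of *HOXB4* and *MIR10A*, with 58 reads in each state and scores of 5.64 in naive and 7.90 in primed PSCs. It was the only naive interaction inside the cluster among the *HOXB* baits.

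*HOXB3*, which acts in the hindbrain and pharyngeal arches, has a promoter on 3 of these baits, those of its distal start, its canonical start and *HOXB6*, and the first and second of them went different ways. The *HOXB3* alternative bait, at the distal start, had 0 interactions in naive and 15 in primed PSCs, of which 8 lay inside the cluster, and its top partner was the *HOXB13* bait itself (46 reads, score 12.2). The bait of the canonical *HOXB3* start had 35 interactions in naive PSCs, all beyond *HOXB1*, and 28 in primed PSCs, of which 25 lay beyond *HOXB1*. Of these, 17 were in both lists. Baits without any interaction in naive PSCs made 12.02% of the 15982 baits in the lists and were 3 of the 11 *HOXB* baits (*HOXB1*, *HOXB2* and the *HOXB3* alternative bait). Captured baits with no interaction in either state are left out of that share, so it is too low for all captured baits.

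The next 3 baits, in the middle of the cluster, each had more interactions in naive than in primed PSCs. *HOXB5*, which acts in the enteric nervous system, had 16 in naive and 10 in primed PSCs, and *HOXB6* had 10 and 9. *HOXB8*, whose forced expression is used to hold myeloid progenitors immature, had 42 in naive, the most of the *HOXB* baits in either state, and 23 in primed PSCs. All naive interactions of these 3 baits lay beyond *HOXB1*, whereas in primed PSCs *HOXB5* had 4, *HOXB6* had 2 and *HOXB8* had 5 inside the cluster.

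The top partners of these 3 baits were in *SKAP1* in both states. For *HOXB5* it was the fragment at 48152406 to 48163317, which holds *MIR1203* and a *SKAP1* start, in naive (24 reads, score 12.42) and primed PSCs (27 reads, score 19.44). That primed value was the highest score of any *HOXB* interaction. For *HOXB8* the top partners were 2 neighbouring fragments of the same *SKAP1* intron, at 48259205 in naive (32 reads, score 16.98) and at 48259948 in primed PSCs (29 reads, score 16.49).

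At the *HOXB13* end, too, the *HOXB* baits had interactions inside the cluster in primed PSCs alone. *HOXB9*, which patterns the thoracic skeleton, had 17 interactions in naive PSCs, all beyond *HOXB1*, and 18 in primed PSCs, of which 3 lay beyond *HOXB1*, 6 inside and 5 beyond *HOXB13*. Just 2 were shared. The *HOXB7* alternative bait had 5 in naive, all beyond *HOXB1*, and 14 in primed PSCs, none beyond *HOXB1*, 5 inside and 8 beyond *HOXB13*.

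*HOXB13*, a prostate and tail-end gene that lies apart from the others, had 9 interactions in naive PSCs, all beyond its own side of the cluster, and 27 in primed PSCs. Of the 27, 21 lay inside the cluster, which was the most of the 11 baits. Its top naive partner was at 48789165, 61.4 kb away (141 reads, score 17.29), and its top primed partner was at 48644782, 80.9 kb away inside the cluster (73 reads, score 12.24). The neighbouring bait of *PRAC1* and *PRAC2*, small genes known from prostate and colon, is no member but behaved alike in counts, with 9 interactions in naive and 28 in primed PSCs and with 1 and 21 inside the cluster.

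The unbaited fragments of *HOXB4*, a gene known for expanding blood stem cells, and *HOXB7* appeared as partners. The *HOXB4* fragment had 3 interactions in naive PSCs, 1 of them inside the cluster, and 4 in primed PSCs, all inside, with the *HOXB2* upstream, *HOXB5*, *HOXB8* and *HOXB13* baits. The *HOXB7* fragment had 1 in naive and 4 in primed PSCs, 2 of the latter inside the cluster. For a fragment without a bait, the number of interactions depends on which neighbours were baited and is not comparable with that of a bait.

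**Figure D2:**
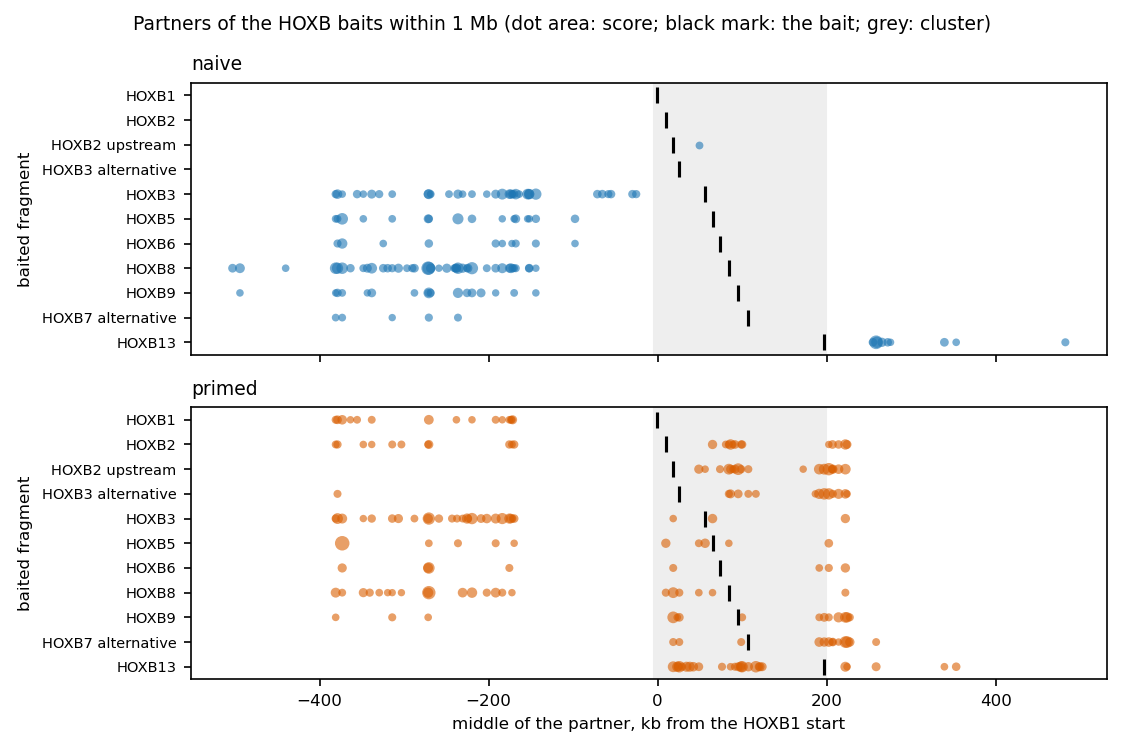
Position of each partner within 1 Mb, in kb from the *HOXB1* start (x axis), for each *HOXB* bait (y axis) in naive (upper panel) and primed PSCs (lower panel), with dot area for the CHiCAGO score, a black mark at the bait and grey over the cluster. Of the naive partners, 125 sit to the left, 115 of them in *SKAP1*, apart from the 9 of *HOXB13* and 1 of the *HOXB2* upstream bait. Of the primed partners, 80 sit to the left in *SKAP1*, 58 in the cluster and 39 beyond *HOXB13*, mostly in a narrow stretch.

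The partners outside the cluster were shared among baits, and the *SKAP1* intron fragment stood at the same number in both states while its baits changed. This fragment of 815 bp was a partner of 6 *HOXB* baits in each state. In naive PSCs these were *HOXB3*, *HOXB5*, *HOXB6*, *HOXB8*, *HOXB9* and the *HOXB7* alternative bait, and in primed PSCs *HOXB1*, *HOXB2*, *HOXB3*, *HOXB5*, *HOXB6* and *HOXB8*, so that 4 baits were common to both. The fragment with *MIR1203* and a *SKAP1* start at 48152406 was a partner of 6 baits in naive and 5 in primed PSCs, and the neighbouring fragment at 48148104 of 5 in each.

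Other partners were listed for more baits in one state than in the other. The fragment at 48379279 in *SKAP1* was a partner of 5 *HOXB* baits in naive and 0 in primed PSCs, and that of *SKAP1-AS2* at 48294128 of 5 and 1. In the other direction, the fragment at 48751766 to 48754699, near *TTLL6*, was a partner of 0 baits in naive and 9 of the 11 in primed PSCs. The fragment next to *HOXB13* at 48730086 was a partner of 0 and 7. A pair that is not listed had a score under 5, and its reads were not part of the lists, so 0 here means not called and not an absence of ligation.

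Outside the cluster, the baits whose primed partners were most like those of the *HOXB* baits lay on both sides of it, 2 in *SKAP1* and 1 next to *HOXB13*. Likeness was the Jaccard overlap, the number of shared partner fragments over the number in either set, with the 84 primed partners of the *HOXB* baits. It was 0.28 (30 shared) for the *SKAP1* bait with *MIR1203* at 48152406, 0.25 (21 shared) for the bait next to *HOXB13* at 48730086, and 0.22 (22 shared) for the *SKAP1* bait at 48428616.

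Interactions over 1 Mb and between chromosomes were listed in primed PSCs and not in naive PSCs, and each rested on few reads. There were 9 over 1 Mb and 2 between chromosomes among the 188 in primed PSCs, and 0 of each among the 135 in naive PSCs, which allows a share of up to 2.22%. Over 1 Mb, these 9 made 4.79% of the primed interactions (Wilson interval 2.54 to 8.85%), where 6.73% of the complete primed list and 1.68% of the complete naive list lay over 1 Mb. Each of the 11 was supported by 3 or 4 reads.

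The distant partners were few, and some were shared by several baits. The promoter of *BAHCC1*, a protein that reads H3K27me3, at 81397898 to 81400002 was a partner of 4 baits, the *HOXB2* upstream (score 6.21), *HOXB3* alternative (5.79), *HOXB9* (6.20) and *HOXB7* alternative (11.53) baits, about 32.8 Mb away. The promoter of *TBX4*, a T-box factor of the hindlimb, at 61450272 was a partner of *HOXB6* (score 6.49) and *HOXB9* (5.52) at a distance of 12.8 or 12.9 Mb. The promoter of *LHX1*, a LIM homeobox gene of gastrulation and kidney, at 36930716 was a partner of *HOXB8* (score 5.11) and lay 11.7 Mb away.

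A fragment in the *LHX1* body was a partner of *HOXB9* (score 7.66), and the next fragment, with the start of *AATF*, a transcription cofactor in cell survival, was a partner of *HOXB13* (score 6.49). Between chromosomes, the *HOXB2* upstream bait interacted with *OTP*, a homeobox gene of the hypothalamus, on chromosome 5 (score 11.59). *HOXB9* interacted with the fragment of *NR2E1*, a nuclear receptor of neural stem cells, and *OSTM1* on chromosome 6 (score 7.62). *HOXB9* thus had 4 of these 11 interactions, more than any other *HOXB* bait.

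The uncaptured Hi-C libraries held the same regions in bins of 100 kb. The study's methods describe PCHi-C as a capture from Hi-C library DNA, so Hi-C was not taken as independent of PCHi-C. The members fall into 3 bins: *HOXB1* to *HOXB5* in that starting at 48.5 Mb, *HOXB6* to *HOXB9* in that at 48.6 Mb, and *HOXB13* in that at 48.7 Mb. Contacts between the 3 bins numbered 587 in naive and 1086 in primed PSCs, which was 0.93 times (95% exact Poisson interval 0.86 to 1.01) and 1.55 times (1.46 to 1.65) the mean of chromosome 17 at the same distances. Contacts with bins beyond *HOXB1*, up to 500 kb away, numbered 1706 in naive and 1404 in primed PSCs, or 1.81 times (1.73 to 1.90) and 1.33 times (1.26 to 1.40) that mean.

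Hi-C thus had the same order between the states as PCHi-C inside the cluster and beyond *HOXB1*, and the reverse order beyond *HOXB13*. There it had 0.91 times the mean (0.84 to 0.97) in naive and 0.67 times (0.62 to 0.73) in primed PSCs. Only bin pairs listed in both files were counted, 3 inside, 11 beyond *HOXB1* and 9 beyond *HOXB13*, and the mean was taken over such pairs. The naive file leaves out pairs with few contacts, so pairs low in naive PSCs are missing. The pair of the 48.5 and 48.8 Mb bins was not counted, and the effect of this selection on the order was not tested. Of the PCHi-C partners beyond *HOXB13*, 37 of 39 in primed and 4 of 9 in naive PSCs lie within the *HOXB13* bin itself, which ends at 48.8 Mb, so in Hi-C their contacts with the other members count as inside. The contacts were not corrected for the bins' coverage. The 3 bins had 529, 457 and 402 contacts with other chromosomes in naive PSCs (chromosome 17 median 427.5) and 420, 429 and 360 in primed PSCs (median 474).

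**Figure D3:**
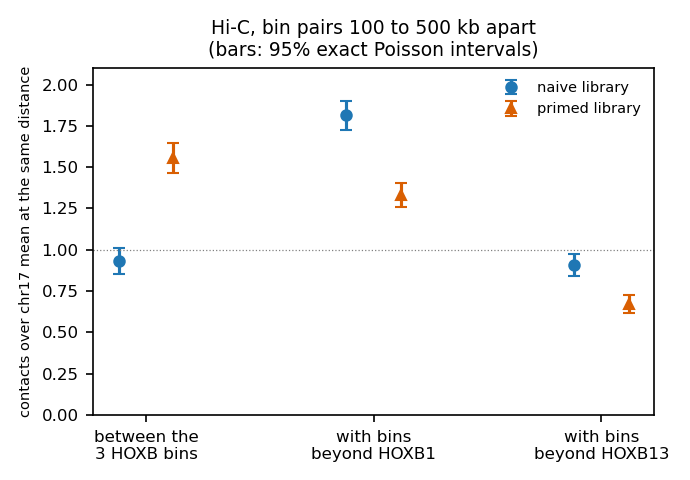
Hi-C contacts of the 3 *HOXB* bins with each other and with bins on either side, 100 to 500 kb apart, over the mean of chromosome 17 at the same distance (y axis, 1 library per state, bars are 95% exact Poisson intervals). Only bin pairs listed in both files are counted. The primed point lies above the naive one inside the cluster and below it on both sides.

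Beyond *HOXB1* in Hi-C, the *HOXB6* to *HOXB9* bin had 231 contacts with the bin of the *SKAP1* intron fragment at 48.2 Mb in naive and 151 in primed PSCs, or 4.51 times (3.95 to 5.13) and 2.60 times (2.20 to 3.05) the mean at that distance. The *HOXB1* to *HOXB5* bin had 161 and 210 contacts with the same bin, or 2.20 times (1.88 to 2.57) and 2.54 times (2.21 to 2.91), and these intervals overlap. With the nearest bin beyond *HOXB1*, at 48.4 Mb, the *HOXB1* to *HOXB5* bin had 316 contacts in naive and 226 in primed PSCs, or 1.22 times (1.09 to 1.37) and 0.79 times (0.69 to 0.90) the mean, without overlap. Inside the cluster, the *HOXB1* to *HOXB5* bin had 51 contacts with the *HOXB13* bin in naive and 159 in primed PSCs, or 0.45 times (0.33 to 0.59) and 1.24 times (1.06 to 1.45) the mean.

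At long range the primed Hi-C library had counts at the partners that PCHi-C listed. These partners were chosen from PCHi-C, which is not independent of Hi-C. The 3 *HOXB* bins had 14 contacts with the bin of *LHX1* and *AATF*, 13.6 times the mean at that distance (7.45 to 22.9), 15 with *TBX4* (14.5 times, 8.10 to 23.9) and 20 with *BAHCC1* (25.1 times, 15.4 to 38.8). The naive file leaves out pairs within chromosomes that have few contacts, and none of these pairs was in it, so the states were not compared there.

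Contacts between chromosomes were listed in both Hi-C files. With the *HOXC* cluster the *HOXB* bins had 2 contacts in naive and 14 in primed PSCs, where the coverage of the bins gave an expected 0.07 and 0.05, and with *HOXA* they had 0 and 6, and with *HOXD* 0 and 2. They had 0 contacts with *NR2E1* in naive and 3 in primed PSCs, with an expected 0.04 in primed PSCs, and 0 and 1 with *OTP*. PCHi-C listed no interaction of a *HOXB* bait with another *HOX* cluster in either state.

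The other *HOX* clusters are the families most like this one, and in PCHi-C they had the shift to the inside in common and the shift to the long range in differing amounts. Inside interactions numbered 0 in naive and 18 in primed PSCs for *HOXA*, 1 and 40 for *HOXC*, and 0 and 6 for *HOXD*, beside 1 and 58 for *HOXB*. Interactions over 1 Mb numbered 0 and 49 for *HOXA*, 0 and 6 for *HOXC* and 12 and 91 for *HOXD*, beside 0 and 9 for *HOXB*. The ratio of all primed to naive interactions was 2.28 (1.78 to 2.94) for *HOXA*, 0.88 (0.70 to 1.11) for *HOXC* and 1.59 (1.30 to 1.94) for *HOXD*, so that the 1.39 of *HOXB* lay between them. *HOXB* spans 203 kb and the others 101 to 123 kb, so the room for inside interactions differs.

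H3K4me1 along the cluster was compared in tiles of 500 bp, as the log2 of reads scaled to library size (log2 RPM). Of 407 tiles in the window, 165 reached more than 0 log2 RPM in 2 or more libraries and were tested with limma, a share of 40.5% against 7.53% of all tiles of the genome. Of the 165, 13 were higher in primed PSCs, where 25.9% of all 465156 tiles tested were, and 21 were higher in naive PSCs, where 26.1% were (limma, adjusted p under 0.05). Calls in either direction thus made 20.6% of the tested tiles of the cluster and 52.0% of all tested tiles. The median difference, primed minus naive, was 0.03 in the cluster and -0.08 over all tested tiles on the log2 scale.

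The mark lay mostly over *HOXB1* to *HOXB9* and around *HOXB13*, and the stretch between *HOXB9* and *HOXB13* was low in both states. At the tile of the *HOXB1* start the level was 1.31 and 1.77 log2 RPM in naive and 1.85, 1.34 and 1.27 in primed PSCs, and the groups overlapped (difference -0.05, SE 0.37, limma adjusted p = 0.92). At the *HOXB2* start it was 0.41 and 0.57 in naive and 1.76, 1.02 and 0.94 in primed PSCs. The 3 primed libraries were all above the naive ones there, but the difference of 0.75 (SE 0.41) was not called (limma adjusted p = 0.13).

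At the starts of the other members no difference was called either. The *HOXB5* start had 0.41 and 0.71 in naive and 0.85, 0.48 and 0.44 in primed PSCs, and that of *HOXB9* -0.05 and 0.25 in naive and 0.55, 1.34 and -0.27 in primed PSCs. The *HOXB4* start had -0.20 and 0.71 in naive and 0.02, -0.98 and -0.34 in primed PSCs. The tiles at the starts of *HOXB3*, *HOXB6*, *HOXB7*, *HOXB8* and *HOXB13* did not pass the filter, and of these *HOXB8* was the lowest, with between 1 and 7 reads in each library.

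**Figure D4:**
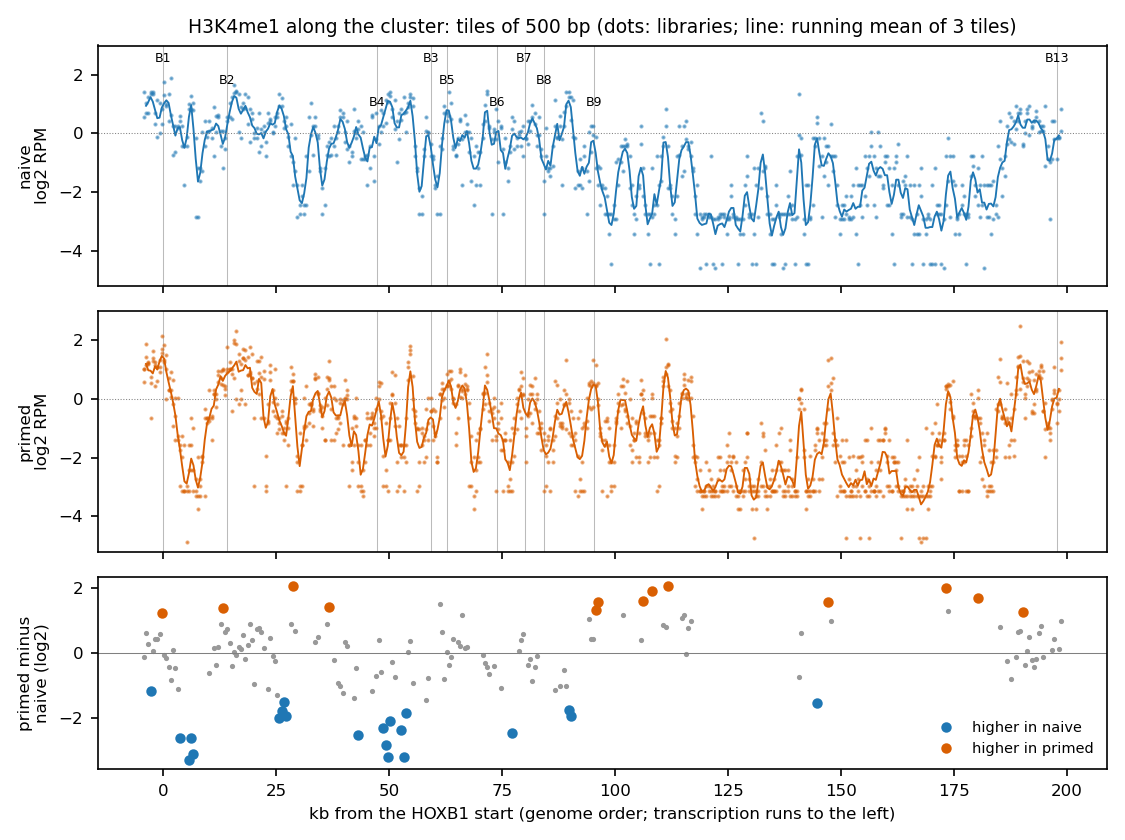
H3K4me1 in log2 RPM per 500 bp tile (y axis) against the distance from the *HOXB1* start in kb (x axis), with a dot per library and tile and a line for the running mean of 3 tiles, in naive (top) and primed PSCs (middle), and the limma difference of tested tiles (bottom, called tiles in colour). Tiles called higher in naive PSCs lie mainly between *HOXB1* and *HOXB9*, and 9 of the 13 called higher in primed PSCs lie beyond *HOXB9*.

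Of the 21 tiles higher in naive PSCs, 2 lay within 2 kb of the canonical start of a member, both upstream of *HOXB4*, and most formed runs. Between *HOXB1* and *HOXB2*, the run at 48536501 to 48538000 had mean levels of 1.03 and 0.91 log2 RPM in naive and -2.09, -1.59 and -2.41 in primed PSCs. The tile sequence given above is from the middle of its first tile. All 3 tiles of the run passed the filter through the naive libraries alone, with every primed value below 0. That the naive libraries lie above the primed ones follows from this. The largest difference of the run, -3.29, was the largest of any tile in the cluster, with limma adjusted p-values over the run of 0.00068 to 0.0034. A single tile nearer to *HOXB1*, at 48534501, had 0.60 and 0.42 in naive and -1.56, -2.98 and -1.73 in primed PSCs. This tile, too, passed the filter through the naive libraries alone.

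Another run lay over *MIR10A*, upstream of *HOXB4*. At 48579501 to 48581500 the mean level was 0.85 and 1.04 log2 RPM in naive and -1.17, -2.19 and -1.60 in primed PSCs, with differences between -2.08 and -3.19. The tile at 48579501 contains both mature arms of *MIR10A*. The next run, at 48583501 to 48585000 on the *HOXB3* bait, had 0.80 and 0.53 in naive and -1.76, -1.54 and -2.09 in primed PSCs. A run of 4 tiles at 48556501 to 48558500, on and beside the *HOXB3* alternative bait, fell from 0.75 and 0.72 to -0.99, -1.25 and -0.94. Every tile of these runs passed the filter through the naive libraries alone, with every primed value below 0. The order of the groups in these runs follows from this.

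The other calls for naive PSCs were short. Between *HOXB8* and *HOXB9* the 2 tiles at 48620501 to 48621500 had 0.84 and 1.33 in naive and -0.85, -0.19 and -1.21 in primed PSCs. Single tiles were called at 48528001, 48574001, 48608001 and 48675501, with differences between -1.16 and -2.51. Of these short calls, all but the tiles at 48528001 and 48620501 passed the filter through the naive libraries alone, with every primed value below 0.

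Tiles higher in primed PSCs lay singly or in pairs, mostly at the *HOXB13* end. On the *HOXB9* bait, the 2 tiles just upstream of the *HOXB9* start at 48626501 to 48627500 had -0.62 and -1.46 in naive and 0.86, 0.25 and 0.11 in primed PSCs. On the *HOXB7* alternative bait, 3 tiles were called, and the largest difference of the cluster in this direction was that at 48642501 (2.08, limma adjusted p = 0.0049), with -1.86 and -0.43 in naive and 1.18, 1.19 and 0.44 in primed PSCs. Tiles at 48678001, 48704001, 48711001 and 48721001 between *HOXB9* and *HOXB13* had differences of 1.58, 2.01, 1.70 and 1.27. Each of the tiles at this end passed the filter through primed libraries alone, with both naive values below 0. The filter itself thus favoured this direction.

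At the *HOXB1* end, 4 single tiles were higher in primed PSCs. The tile just inside *HOXB1* at 48530501 had 0.31 and 0.83 in naive and 1.71, 2.15 and 1.57 in primed PSCs (limma adjusted p = 0.013), and that inside *HOXB2* at 48544001 had 0.08 and -1.17 in naive and 1.02, 0.48 and 0.99 in primed PSCs. The tile at 48559501, just beyond the run at the *HOXB3* alternative bait, had -0.99 and -1.75 in naive and 0.85, 0.60 and 0.62 in primed PSCs (difference 2.06). The fourth, at 48567501, rose by 1.41. The tiles at 48559501 and 48567501 passed the filter through the primed libraries alone, with both naive values below 0. A single library can decide such calls: with each of the 5 libraries left out in turn, 5 of the 21 naive and 1 of the 13 primed tiles were called every time, and the number called ranged from 15 (without naive 2) to 44 (without primed 2), with 17 without naive 1 or without primed 3.

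The unit of the interactions is the HindIII fragment, taken as the mean log2 RPM of its tiles. Of the fragments of the cluster, 13 were tested, 0 were higher in primed PSCs, where 29.9% of all 39150 fragments tested were, and 3 were higher in naive PSCs, where 28.5% were. The *HOXB3* alternative bait had 1.08 and 0.82 log2 RPM in naive and -1.04, -0.41 and -0.75 in primed PSCs (difference -1.68, SE 0.37, limma adjusted p = 0.0040). The fragment of *HOXB4* and *MIR10A* had 0.15 and 0.48 in naive and -0.64, -0.87 and -1.08 in primed PSCs (difference -1.18, SE 0.37, limma adjusted p = 0.023). That between *HOXB8* and *HOXB9* at 48618973 had 0.73 and 0.42 in naive and -0.41, -0.04 and -0.92 in primed PSCs (difference -1.03, SE 0.39, limma adjusted p = 0.048). The labels do not say whether H3K4me1 libraries came from separate cultures, so p-values measure only the spread between these libraries. All 3 passed the filter through the 2 naive libraries alone, as every primed value was below 0. That the naive libraries lie above the primed ones follows from this. Of the fragments of the cluster, 0 were called without naive 1, and 1 was called without naive 2 or without primed 3.

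The *HOXB3* alternative bait, with the largest fall of H3K4me1 among the tested fragments of the cluster, was also a bait that had 0 interactions in naive and 15 in primed PSCs. The other baits with interactions only in primed PSCs were those of *HOXB1* and *HOXB2*. The *HOXB1* bait had 0.62 and 1.11 in naive and 1.09, 0.97 and 0.76 in primed PSCs (difference 0.08, SE 0.35). The *HOXB2* bait had -0.17 and -0.07 in naive and -0.996, -0.94 and -1.16 in primed PSCs, lower without overlap, but did not pass the filter and was not tested. Among the remaining baits, *HOXB5* (difference 0.01), the *HOXB2* upstream bait (0.22) and *HOXB13* (0.33) were tested and not called.

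Outside the cluster, 83 fragments were partners of *HOXB* baits and 11 passed the H3K4me1 filter, of which 2 were higher in primed and 2 in naive PSCs, against 29.9% and 28.5% of all tested fragments. The *SKAP1* intron fragment that was a partner of 6 baits in each state had -3.73 and -2.83 log2 RPM in naive and 0.81, -0.40 and 0.32 in primed PSCs. These values are 3 and 1 reads in naive and 32, 12 and 68 reads in primed PSCs, so the naive libraries were near their lower limit. The difference was 3.52 (SE 0.48, limma adjusted p = 0.00050), the largest among the tested partners, while the number of *HOXB* baits that contacted it was the same. The fragment passed the filter through primed libraries alone, as both naive values were below 0, so the filter favoured this direction. Its neighbour at 48259205 had 1 tested tile, which was higher in primed PSCs.

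The *LHX1* promoter was the other partner higher in primed PSCs. It had -0.31 and -0.36 in naive and 0.95, 0.84 and 0.78 in primed PSCs (difference 1.19, SE 0.33, limma adjusted p = 0.012). Of its 14 tested tiles, 6 were higher in primed PSCs. This fragment, too, passed the filter through the primed libraries alone, and the order of the groups follows from this. The call of the fragment was lost without naive 1, without naive 2 or without primed 3, with differences of 1.22, 1.17 and 1.23. Of the other distant partners, *TBX4* had 7 of 13 tested tiles higher in primed PSCs, *AATF* 3 of 7, *BAHCC1* 0 of 2 and *NR2E1* 0 of 16, against 25.9% of all tested tiles. None of these tiles was higher in naive PSCs. The *NR2E1* fragment differed by 0.09 (SE 0.36, limma adjusted p = 0.84), and the *BAHCC1* fragment, with -0.68 and -0.01 in naive and -0.85, -1.79 and -1.29 in primed PSCs, did not pass the filter.

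The partners higher in naive PSCs were near the ends of the region. The fragment in *CBX1*, the gene of a heterochromatin protein, at 48086303 was a partner of *HOXB8* in naive PSCs and had 0.12 and 0.40 in naive and -2.07, -1.72 and -2.15 in primed PSCs (difference -2.24, limma adjusted p = 0.0011). The fragment at 48869849, near *CALCOCO2*, the gene of an autophagy receptor, was a partner of *HOXB13* in both states and had 0.78 and 0.70 in naive and -2.22, -1.19 and -2.94 in primed PSCs (difference -2.86, limma adjusted p = 0.0017). The *CBX1* and *CALCOCO2* fragments passed the filter through the naive libraries alone, as every primed value was below 0. That the naive libraries lie above the primed ones follows from this. At the fragment next to *HOXB13* at 48730086, a partner of 7 baits in primed PSCs alone, the difference of 0.89 (SE 0.39) was not called (limma adjusted p = 0.075).

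**Figure D5:**
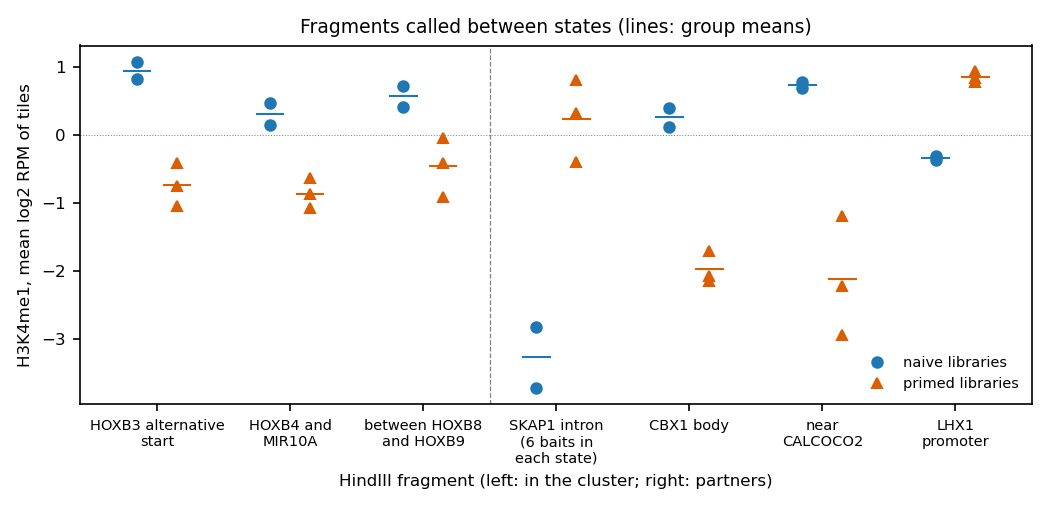
H3K4me1 as mean log2 RPM of the tiles (y axis) of each HindIII fragment of the cluster or among its partners that limma called between the states (x axis), with a point per library (2 naive, 3 primed) and a line at the group mean. The 3 fragments of the cluster and those of *CBX1* and *CALCOCO2* are higher in naive PSCs, and the *SKAP1* intron and *LHX1* promoter are higher in primed PSCs.

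Lists of related genes, counted by the fragment of their canonical start, gave the setting. Of all 39150 fragments tested for H3K4me1, 29.9% were higher in primed and 28.5% in naive PSCs, and each list holds few tested fragments. Interactions of the *HOXA*, *HOXC* and *HOXD* start fragments numbered 58, 163 and 108 in naive and 127, 146 and 191 in primed PSCs, and in H3K4me1 0 of 4, 1 of 1 (*HOXC11*, higher in naive) and 1 of 3 (*HOXD12*, higher in primed) tested fragments were called. The 12 upstream regulators, from CDX, retinoic acid, WNT and FGF signalling, had 93 and 96 interactions, and of 7 tested fragments those of *RARA* (2.12) and *CYP26A1* (1.08) were higher in primed PSCs.

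The 13 Polycomb genes had 57 interactions in naive and 42 in primed PSCs, and the 1 tested fragment was not called. The 15 genes that flank the cluster within 500 kb, on 12 baits, had 64 and 73 interactions, of which the *SKAP1* start fragment had 10 and 37, and neither of their 2 tested fragments was called. The 6 naive marker genes had 15 and 10 interactions. *DPPA5* and *DPPA3* were the 2 of 3 tested fragments that were higher in naive PSCs, where 28.5% of all tested fragments were. The 6 primed marker genes had 32 and 104 interactions, and neither of their 2 tested fragments was called. Of their 5 baited fragments, 4 had at least 2 times and 5 interactions more in primed PSCs, where 10.9% of the 15982 baits in the lists did. The other, *SFRP2*, had more in naive PSCs, with 19 against 5. The median H3K4me1 difference was 0.01 over the 5 tested *HOXB* start fragments and -0.01 over all fragments tested.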

How the data were processed

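PCHi-C and Hi-C were analysed in naive and primed PSCs, and H3K4me1 in 2 naive and 3 primed libraries, grouped by their titles. The NANOG, SOX2 and input libraries (6 of 17 samples) were not analysed here. The authors mapped PCHi-C pairs to GRCh38 with HiCUP, combined 2 replicates within CHiCAGO and deposited 1 list per state with the CHiCAGO score and the combined, rounded read number of each interaction. The authors deposited the Hi-C di-tag count per pair of 100 kb bins without normalisation, and the naive count file omits low pairs within chromosomes. For H3K4me1, the authors deposited log2 RPM values from SeqMonk for tiles of 500 bp, with tiles without reads set to 0.9 reads. Per the submitters' processing notes, Trim Galore 0.4.5 and 0.5.0 and Bowtie2 2.2.7 and 2.3.2 were used in the series.

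The lists name no gene, so baits were matched to members by position, with promoters from GENCODE release 44 (the start and 1000 bp upstream). All fragments (100%) had the ends of GRCh38 HindIII fragments. Interactions listed from both baits were merged. Shares have 95% Wilson intervals and ratios exact intervals for counting error, and a count of 0 allows 3 counts. Hi-C counts within chromosomes were set against the chromosome 17 mean at that distance and counts between chromosomes against the product of bin coverages, with exact Poisson intervals. Up to 500 kb, counts and means used only bin pairs listed in both files.

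Tiles, and fragments as the mean of their tiles, with log2 RPM above 0 in at least 2 libraries were compared genome-wide with limma 3.58.1 (lmFit, eBayes with trend, R 4.3.3) and the Benjamini-Hochberg threshold of 0.05. Whole reads were recovered from the log2 RPM (100% of non-empty tiles within 0.01 reads) and used for edgeR 4.0.16, an alternative chosen after seeing the data. The limma step was tested on simulated tiles, and the edgeR step was not. Other alternatives were higher score and read minimums, equal list lengths, other filters, scaling and variance priors, the replicate number as a block and each library left out. Python 3.11.15, pandas 2.3.3, scipy 1.17.1 and matplotlib 3.10.9 were used.

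The members, lists and rules were chosen with earlier results of these data known. Named beside the members are genes on their baits, partners over 1 Mb or on other chromosomes, the top-scoring partner per bait and state, 3 baits of like partners, called tiles and fragments of the cluster, and the 5 partners with the largest H3K4me1 change. Further partners, those shared by many baits, were named after their values were seen. The lists were *HOXA*, *HOXC*, *HOXD*, flanking, upstream, Polycomb, naive and primed marker genes. A further list is not reported here.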

Additional observations from a re-analysis of the deposited data

How the results depend on the processing

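The ratio of primed to naive interactions, 1.39, was 1.62 at a score of at least 7, 1.39 at a score of at least 10, 1.37 with at least 10 reads and 1.27 with lists of equal length. The number over 1 Mb in primed PSCs was 2 at a score of at least 7, 1 at a score of at least 10 and 0 with at least 10 reads, since each had 3 or 4. The share of primed interactions also found in naive PSCs was 16.0% at a score of at least 10 and 30.3% when both ends had to lie within 10 kb. At a score of at least 7, naive and primed interactions numbered 0 and 28 inside the cluster, 46 and 29 beyond *HOXB1*, and 4 and 20 beyond *HOXB13*. At a score of at least 10 they numbered 0 and 9, 16 and 8, and 2 and 6.

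In H3K4me1, 34 tiles of the cluster were called in all. With a log2 RPM above 1 in 2 libraries 5 were called (2 higher in primed, 3 in naive PSCs), and leaving out each library gave 15 to 44. Without the filter 6 were higher in primed PSCs and 24 in naive PSCs, and with median centring 20 were higher in each. Fragments of the cluster called numbered 3 of 13 tested, 0 to 4 of 13 with each library left out, 8 of 44 without the filter and 0 of 2 with the stricter filter. The *NR2E1* fragment, not called, ranged from -0.11 (without naive 2) to 0.30 (without naive 1) and was -0.08 without primed 1, so its sign rests on single libraries.

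The replicate numbers did not pair the libraries: with naive and primed libraries of the same number, deviations correlated at 0.03. With the replicate block, which uses the 2 numbers that both states share, 27 tiles and 1 fragment were called. With edgeR on recovered reads, 40 tiles and 3 fragments were called. With 6743809 to 26596518 reads per library an empty tile stands between -2.91 and -4.89 log2 RPM, so differences from an empty tile depend on depth.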
